A study of Arabidopsis thaliana with 9 samples.

Results

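Glutathione transferases of the tau (GSTU) and phi (GSTF) classes are described here in Arabidopsis thaliana seeds. This set of genes was chosen with earlier results of these data known. Its members were taken by locus, as GSTU1 to GSTU28 and GSTF2 to GSTF14, with no cut on a measured value. These are 41 genes, 28 tau and 13 phi, of which 38 (27 tau and 11 phi) had a row among the 22555 genes of the joined tables. GSTU15, GSTF4 and GSTF14 had no row and are not analysed here. RNA from freshly harvested seeds, imbibed for 8 h, was sequenced in 9 libraries, 3 per group. The first group carried rgl2-13, a mutant allele of the DELLA gene RGL2, together with the DOF6ioex construct and was placed in 50 µM β-estradiol. The second was DOF6ioex in 50 µM β-estradiol, and the third was DOF6ioex in mock solution, which the labels also describe as water. DOF6ioex stands for estradiol-inducible overexpression of the DOF transcription factor gene DOF6, so all 9 libraries come from seeds with the construct. Estradiol itself and the induction of DOF6 therefore cannot be told apart. The labels do not say whether the 3 libraries of a group came from separate plants or seed lots, or how many independent lines were used, so p-values measure only the spread between these libraries.

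Glutathione transferases join the tripeptide glutathione to electrophilic compounds, and vacuolar ABC transporters then remove the conjugates from the cytosol. The tau class is found mainly in plants and the phi class is best known from them. Both are large families, known for herbicide detoxification and for genes that respond to oxidative stress, pathogens and hormones. Some members have roles in the making or movement of plant metabolites: GSTF12 (TT19) is needed for flavonoids to reach the vacuole, GSTF6 takes part in camalexin synthesis, and GSTF11, GSTU20 and GSTU13 have been linked to glucosinolate synthesis. GSTF2 binds indole-type compounds, GSTU24 and GSTU25 act on the explosive trinitrotoluene, and GSTU17 has been linked to abscisic acid responses.

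Many members lie side by side in the genome. In the gene order of the RefSeq TAIR10.1 annotation, 27 of the 41 members formed 8 runs of neighbouring members of 1 class, with at most 1 other protein-coding gene between neighbours. The other 14 stood alone. The longest run, on chromosome 2, held GSTU7, GSTU6, GSTU5, GSTU4, GSTU3, GSTU2 and GSTU1. A run on chromosome 1 held GSTU23, GSTU22, GSTU21, GSTU20 and GSTU19.

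The 250 bases before the annotated start of 4 tau genes are printed because their levels or differences are described below. GSTU19 and GSTU20 are neighbours with very different levels. GSTU1 and GSTU7 come from the ends of the chromosome 2 run and are also among the members with the largest differences without overlap. All are on the minus strand of TAIR10.1 (RefSeq), at chr1:29488008-29488257 for GSTU19, chr1:29485390-29485639 for GSTU20, chr2:12632539-12632788 for GSTU1 and chr2:12618900-12619149 for GSTU7. The GSTU7 window also overlaps an exon of another annotated transcript. Each is written 5′ to 3′ toward its gene, with capitals marking TGACG, the core of the site of TGA bZIP factors, or its complement.
GSTU19: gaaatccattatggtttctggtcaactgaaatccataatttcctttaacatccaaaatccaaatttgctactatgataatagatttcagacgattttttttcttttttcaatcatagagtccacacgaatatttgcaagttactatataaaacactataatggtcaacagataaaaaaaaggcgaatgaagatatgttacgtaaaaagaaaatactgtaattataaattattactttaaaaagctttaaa
GSTU20: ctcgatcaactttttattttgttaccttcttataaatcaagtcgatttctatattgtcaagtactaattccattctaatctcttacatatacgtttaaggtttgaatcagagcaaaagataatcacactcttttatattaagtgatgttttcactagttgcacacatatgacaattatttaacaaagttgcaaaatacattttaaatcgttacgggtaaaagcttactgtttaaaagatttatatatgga
GSTU1: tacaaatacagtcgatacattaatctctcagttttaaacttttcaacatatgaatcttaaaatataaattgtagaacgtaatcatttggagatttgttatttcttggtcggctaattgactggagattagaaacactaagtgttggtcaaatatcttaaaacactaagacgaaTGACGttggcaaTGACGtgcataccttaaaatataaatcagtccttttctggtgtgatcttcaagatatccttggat
GSTU7: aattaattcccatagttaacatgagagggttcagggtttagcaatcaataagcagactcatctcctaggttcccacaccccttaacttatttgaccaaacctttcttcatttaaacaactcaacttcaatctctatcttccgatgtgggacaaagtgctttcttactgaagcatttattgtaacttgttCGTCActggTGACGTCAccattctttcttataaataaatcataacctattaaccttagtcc

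The GSTU1 window held 2 copies of TGACG, starting 77 and 65 bases before the gene, the second of them sharing bases with the related motif ACGTG. In the GSTU7 window there were 3 copies, starting 61, 52 and 49 bases before the gene, and the last 2 overlap each other on opposite strands. Neither GSTU19 nor GSTU20 had a match in these windows. Searched on both strands, TGACG occurred at least once in 14 of the 41 member windows (34.1%) and in 5098 of 27443 windows of protein-coding genes (18.6%). At least 2 copies were found before GSTU1, GSTU7 and GSTU9, which is 7.32% of members, against 3.21% of protein-coding genes. The window of GSTU9 is not printed. On the log2 scale used below, GSTU9 differed by 0.05 in DOF6ioex estradiol against mock, with overlap. It differed by 0.06 between genotype labels in estradiol and by 0.11 where both differed, again with overlap. Whether the motif goes with any difference was not tested. By class, 39.3% of tau and 23.1% of phi windows held a copy. The motif ACGTG, also searched on both strands, occurred in 36.6% of member windows and 22.9% of all windows. These are matches of letters and not measured binding sites.

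Several phi genes are near copies of each other. GSTF2 on chromosome 4 and GSTF3 on chromosome 2 have coding sequences of 639 bases that were 94.5% identical, with 35 differing bases. GSTF6 and GSTF7, neighbours on chromosome 1, were 94.3% identical in coding sequence. The first 90 coding bases of both pairs are shown because reads from such stretches are hard to assign, and capitals mark the bases at which a pair differs.
GSTF2: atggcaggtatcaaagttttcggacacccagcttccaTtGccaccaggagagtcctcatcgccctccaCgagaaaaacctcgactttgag
GSTF3: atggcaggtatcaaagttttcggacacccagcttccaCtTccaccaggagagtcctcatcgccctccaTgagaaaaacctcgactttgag
GSTF6: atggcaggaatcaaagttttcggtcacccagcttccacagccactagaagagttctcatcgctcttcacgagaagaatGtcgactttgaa
GSTF7: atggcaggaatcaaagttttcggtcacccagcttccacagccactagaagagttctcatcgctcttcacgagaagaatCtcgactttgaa

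In this stretch GSTF2 and GSTF3 differed at 3 bases, and GSTF6 and GSTF7 at 1. Over whole transcripts, 9.41% of the 50-base windows of GSTF6 and 9.19% of those of GSTF7 were found letter for letter in the other gene of the pair. The share was 2.46% for GSTF2, 3.51% for GSTF3, 1.98% for GSTU17 and 2.27% for GSTU18, and the remaining members shared no such window. For GSTF6 and GSTU17 the transcript searched (1186 and 1160 bases) was not of the deposited length (876 and 1179). The same held for GSTU1 (1105 searched, 1203 deposited), GSTU9 (1031 and 998) and GSTF9 (1233 and 1098), which shared no window. The sources used here do not give the read length or the handling of reads with several matches. Levels within these pairs are therefore uncertain, by an amount that was not measured. Among tau genes, GSTU13 and GSTU14 (87.6%) and GSTU1 and GSTU2 (85.9%) were the pairs with at least 85% coding identity.

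Levels were read as FPKM, fragment counts scaled to transcript length and library size, which allows genes to be compared per length. At the estimated depth of 26800000 to 31300000 fragments per library, 1 FPKM of a transcript of 1 kb stands for about 26.8 to 31.3 fragments. Seed storage and oil body transcripts were present in every library, with the 6 markers summing to 44750 to 46760 FPKM in the libraries labelled rgl2-13 DOF6ioex, 51590 to 53610 in DOF6ioex estradiol libraries and 51550 to 67210 in mock libraries. That sum was lower in all 3 libraries labelled rgl2-13 DOF6ioex than in the other 6, and its part in the results below was not tested. The endosperm markers summed to 33810 to 67410 FPKM over the 9 libraries, nearly all of it EPR1, with ZOU under 0.1 in all 9. All 4 leaf markers had a row. They summed to 24.2 to 31.2 FPKM in libraries labelled rgl2-13 DOF6ioex, 19.8 to 23.1 in DOF6ioex estradiol and 17.4 to 36.2 in mock. Nearly all of that was RBCS1A, which averaged 24.1 FPKM over the 9 libraries. LHCB1.3 averaged 1.07, LHCB1.1 0.103 and LHCB2.2 0.0644. The testa markers BAN, TT10 and TT12 stayed under 0.1 FPKM in all 9 libraries. DOF6 was at 21.4 to 52.3 FPKM in libraries labelled rgl2-13 DOF6ioex, 32.1 to 36.0 in DOF6ioex estradiol libraries and 0.41 to 0.86 in mock libraries. RGL2 was at 16.2 to 18.8 FPKM in libraries labelled rgl2-13 DOF6ioex, higher than the 7.57 to 10.2 of DOF6ioex estradiol and the 8.86 to 13.1 of mock libraries. The mutant label is therefore used here as a label only. Replicate 1 of the libraries labelled rgl2-13 DOF6ioex stood apart on the first principal component (45.6% of the variance), at -37.3 against -7.1 to 12.9 for the other 8 libraries. In these bulk samples, fewer cells of a type and less RNA per cell cannot be told apart.

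Imbibed seeds held a few very abundant tau and phi transcripts and many that were close to undetected. Averaged over the 9 libraries, 4 members were at 100 FPKM or more, 10 between 10 and 100, 7 between 1 and 10, and 17 under 1. Among all 22555 genes, 2.97% averaged 100 FPKM or more and 28.6% averaged 10 or more. The 4 most abundant were GSTU19 (AT1G78380) at 610 FPKM, GSTF2 (AT4G02520) at 448, GSTF3 (AT2G02930) at 349 and GSTU7 (AT2G29420) at 111, and GSTU19 was the 110th gene of the table by mean. The ranges of GSTU19 (482 to 905 FPKM) and GSTF2 (352 to 551 FPKM) overlapped over the 9 libraries, as did those of GSTF2 and GSTF3 (251 to 408 FPKM). No library of GSTU7 (84.7 to 161 FPKM) reached GSTF3.

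**Figure D1:**
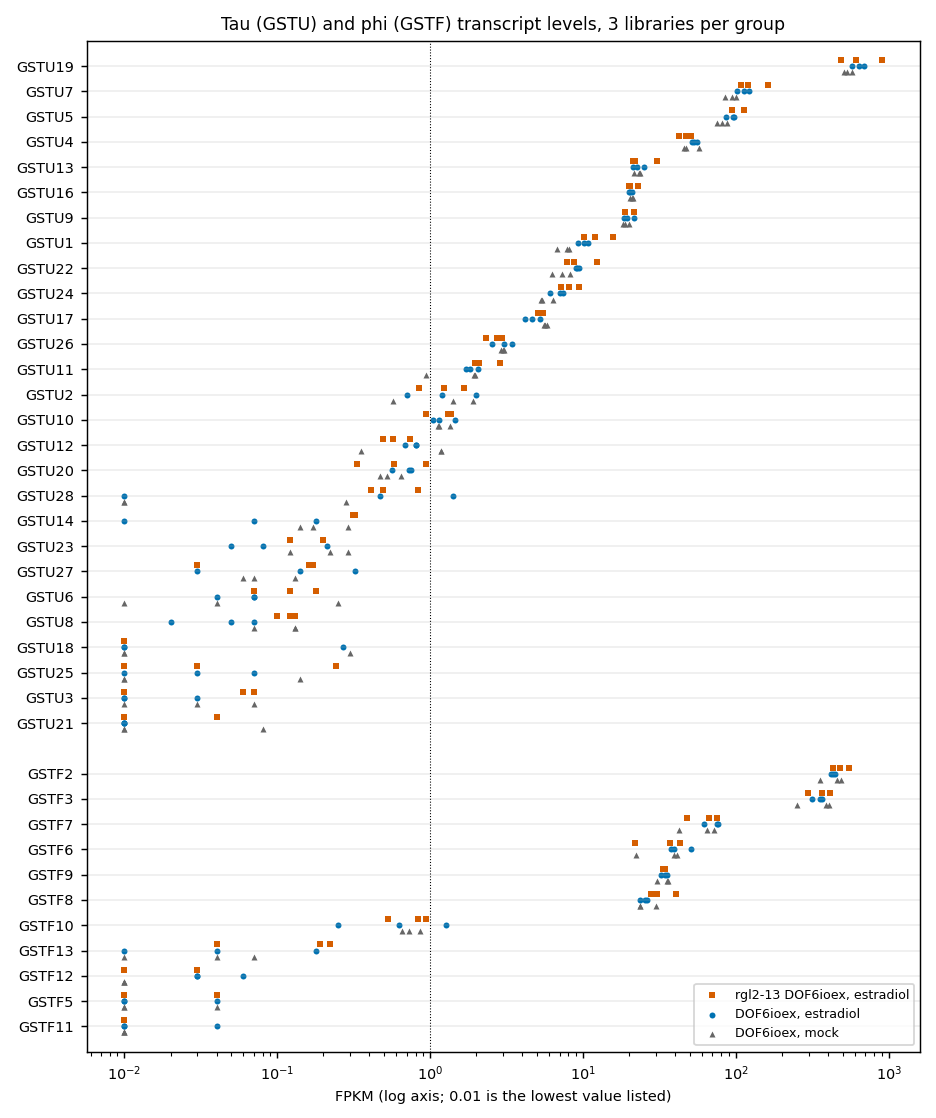
FPKM of the 38 listed members in each of 9 libraries (log axis), tau above phi and each class ordered by mean; squares are libraries labelled rgl2-13 DOF6ioex in estradiol, circles DOF6ioex in estradiol and triangles DOF6ioex in mock. GSTU19, at 482 to 905 FPKM, and GSTF2, at 352 to 551, lead their classes, and 17 members average under 1 FPKM, marked by the dotted line.

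A few genes made up most of each class. GSTU19 accounted for 58.2% to 67.0% of the tau sum in the 9 libraries, and GSTF2 with GSTF3 for 78.6% to 87.2% of the phi sum. The 3 together made up 69.9% to 76.1% of the FPKM of all members. The tau sum was 1352, 829.5 and 977 FPKM in libraries labelled rgl2-13 DOF6ioex, 930.2, 1061 and 979 in DOF6ioex estradiol libraries, and 852, 806 and 915 in mock libraries. The phi sum was 905, 1136 and 973 FPKM in libraries labelled rgl2-13 DOF6ioex, 916, 927 and 998 in DOF6ioex estradiol libraries, and 767, 965 and 1066 in mock libraries. Every DOF6ioex estradiol library had a higher tau sum than every mock library, the nearest being 930.2 and 915 FPKM. Of all tested genes, taken singly, 10.6% were higher without overlap in that comparison. The phi sums of all 3 groups overlapped. All members together made up 0.270% to 0.311% of the FPKM of libraries labelled rgl2-13 DOF6ioex, 0.250% to 0.267% in DOF6ioex estradiol libraries and 0.215% to 0.265% in mock libraries. Those shares overlapped between DOF6ioex estradiol and mock libraries. Libraries labelled rgl2-13 DOF6ioex lay above both, but narrowly, with 0.270% as their lowest and 0.267% as the highest of the others. Summed FPKM of all members overlapped between all 3 groups. The sums were 1950 to 2256 in libraries labelled rgl2-13 DOF6ioex, 1846 to 1988 in DOF6ioex estradiol and 1619 to 1981 in mock.

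Abundance differed widely between neighbouring genes. Each of the 8 runs held at least 1 listed member averaging under 1 FPKM beside at least 1 averaging 1 or more. Next to GSTU19 at 610 FPKM lay GSTU20, linked to glucosinolate synthesis, at 0.612 FPKM, and GSTU21 at 0.0211, the lowest of its run. In the chromosome 2 run, 5 genes averaged 1 FPKM or more and ranged from GSTU2 at 1.28 to GSTU7 at 111, while GSTU6 (0.0944) and GSTU3 (0.0333) lay between them. GSTU25 averaged 0.0611 FPKM beside GSTU24 at 6.89, although both are known for action on trinitrotoluene. GSTU14 averaged 0.201 FPKM beside its near copy GSTU13 at 23.3. Of the phi runs, GSTF7 (64.4 FPKM) and GSTF6 (36.8) stood beside GSTF5 (0.0200), and GSTF9 (33.8) beside GSTF10 (0.740). Of the 9 libraries, only 3 listed a value for GSTU21, 5 for GSTF5 and 8 for GSTU3. The 0.01 set for absent values enters the means of these genes. The run of GSTU12 (0.754) and GSTU11 (1.92) had the narrowest contrast.

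**Figure D2:**
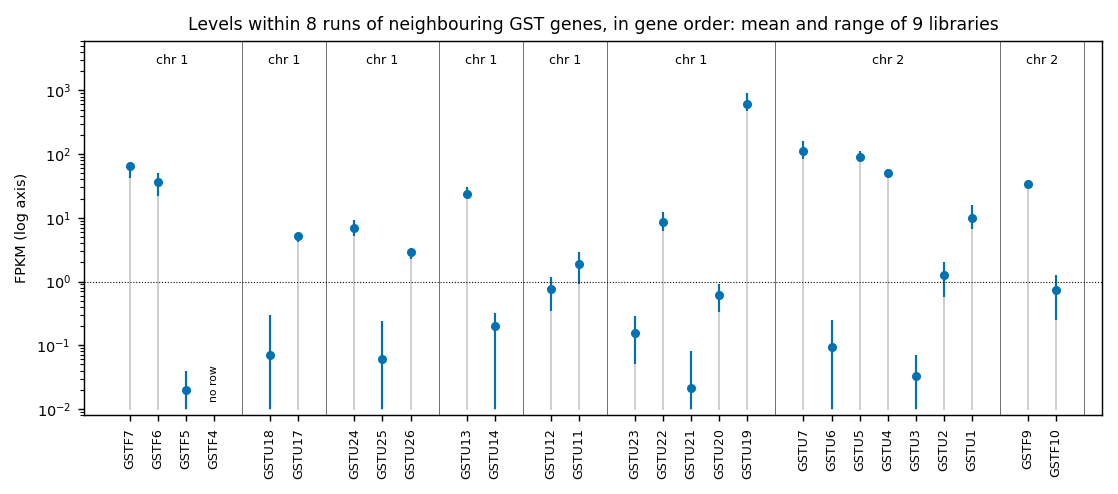
Mean FPKM (point) and range over the 9 libraries (line) of the members in 8 runs of neighbouring genes, on a log axis and in gene order, with the chromosome above each run and a dotted line at 1 FPKM. GSTU19 at 610 FPKM stands beside GSTU20 at 0.612 and GSTU21 at 0.0211, and each run has listed members on both sides of the line. Absent values of listed members enter as 0.01.

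For testing, a gene had to reach 1 FPKM in at least 3 libraries. Of the 38 listed members 21 did (15 tau and 6 phi, or 55.3%), against 60.6% of all genes. The 17 others (12 tau and 5 phi) had values between 0.01, the lowest listed, and 1.4 FPKM. Only GSTU12, GSTU28 and GSTF10 among them reached 1 FPKM in any library. Among the 17, 5 members, GSTU3, GSTU21, GSTF5, GSTF11 and GSTF12, stayed under 0.1 FPKM in all 9 libraries. For GSTF12, the flavonoid transport gene, the highest value was 0.06 FPKM, and the testa markers of the flavonoid pathway were likewise under 0.1. Among tested members, the highest library exceeded the lowest by 1.14 times (GSTU16) to 3.51 times (GSTU2), with a median of 1.63 times. For 8 of the 21 this ratio was under 1.5, and it reached 2 only for GSTU1, GSTU2, GSTU11 and GSTF6.

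None of the 21 tested members was called in any of the 3 comparisons at a Benjamini-Hochberg adjusted p under 0.05 (limma). The fit was made on log2(FPKM + 1), with all 9 libraries and 13679 genes in 1 model. The same fit called 0.154% of all tested genes in DOF6ioex estradiol against mock, 0.161% in the comparison of genotype labels in estradiol and 0.570% where both differed. The comparisons share libraries and are not independent of each other.

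The comparison of DOF6ioex in estradiol with DOF6ioex in mock asks what followed estradiol in seeds with the inducible construct. At an unadjusted p under 0.05 there were 3 of the 21 members, GSTU1, GSTU22 and GSTU17, which is 14.3% of them, beside 6.82% of all tested genes. The first 2 were higher, 9.52% of members, beside 4.51% of all genes. The groups did not overlap for 4 members, 19.0%, beside 14.9% of all genes, and 3 of these were higher, 14.3% beside 10.6%. Of the 21, 18 (85.7%) were fitted higher in estradiol, beside 62.6% of all genes. This count goes by sign alone and includes GSTU10, GSTU13, GSTU26 and GSTF2, whose differences rounded to 0.00. Above the median of all genes lay 11 of the 21 (52.4%), beside 50.0% of all genes. The median difference was 0.05 against 0.04 for all genes on the log2 scale. Without mock replicate 3 the members' median was 0.15 and that of all genes 0.05. By class, all 9 libraries gave a median of 0.09 for the 15 tau and 0.02 for the 6 phi genes.

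GSTU1 (AT2G29490) had the largest difference among the members whose groups did not overlap. It stood at 10.1, 10.8 and 9.19 FPKM in DOF6ioex estradiol libraries and at 8.08, 6.76 and 7.81 in mock libraries. The difference was 0.37 ± 0.14 (SE, on the log2(FPKM + 1) scale; 95% interval 0.07 to 0.67; limma adjusted p = 0.645), higher in 3 of 3 estradiol libraries. GSTU22 (AT1G78340) had 9.45, 9.12 and 9.03 FPKM in DOF6ioex estradiol libraries and 8.21, 6.21 and 7.21 in mock libraries, a difference of 0.32 ± 0.14 (limma adjusted p = 0.722). The estradiol values of GSTU22 lay close together and just above the highest mock library. GSTU7, a tau gene studied for tolerance of oxidative stress, had 112, 121 and 102 FPKM in DOF6ioex estradiol libraries and 93.8, 84.7 and 99.5 in mock libraries. Its groups were separate by a small margin, and the difference of 0.27 ± 0.14 had an interval from -0.03 to 0.56 (limma adjusted p = 0.765). GSTU17 (AT1G10370) ran the other way, with 4.18, 5.24 and 4.65 FPKM in DOF6ioex estradiol libraries and 5.80, 5.53 and 5.65 in mock libraries. Its difference was -0.23 ± 0.09 (interval -0.43 to -0.03; limma adjusted p = 0.702), and all 3 estradiol libraries were below all 3 mock libraries.

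For the abundant members other than GSTU7 the groups overlapped. GSTU19 had 570.2, 685 and 634 FPKM in DOF6ioex estradiol libraries and 529, 505 and 571 in mock libraries, and the groups overlapped narrowly. Its difference was 0.23 ± 0.18 (interval -0.16 to 0.62; limma adjusted p = 0.818). GSTU5 (AT2G29450) had 96.5, 94.7 and 85.7 FPKM in DOF6ioex estradiol libraries and 81.2, 75.2 and 87.7 in mock libraries, at 0.18 ± 0.10 (limma adjusted p = 0.777). For GSTF2 the estradiol libraries (428, 417 and 443 FPKM) lay inside the wider range of the mock libraries (352, 457 and 486). Its difference was 0.00 ± 0.13, with an interval of -0.27 to 0.28. GSTF3 had 314, 354 and 366 FPKM in DOF6ioex estradiol libraries and 251, 384 and 407 in mock libraries, a difference of 0.02 ± 0.17. As for GSTF2, mock replicate 1 was the lowest of the 6 libraries. GSTF7 (AT1G02920), a stress-responsive phi gene, had 76.0, 61.2 and 75.2 FPKM in DOF6ioex estradiol libraries and 64.1, 42.2 and 71.9 in mock libraries, a difference of 0.28 ± 0.20 (interval -0.16 to 0.71). It was 0.05 without mock replicate 2, the lowest library, and 0.43 without mock replicate 3.

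**Figure D3:**
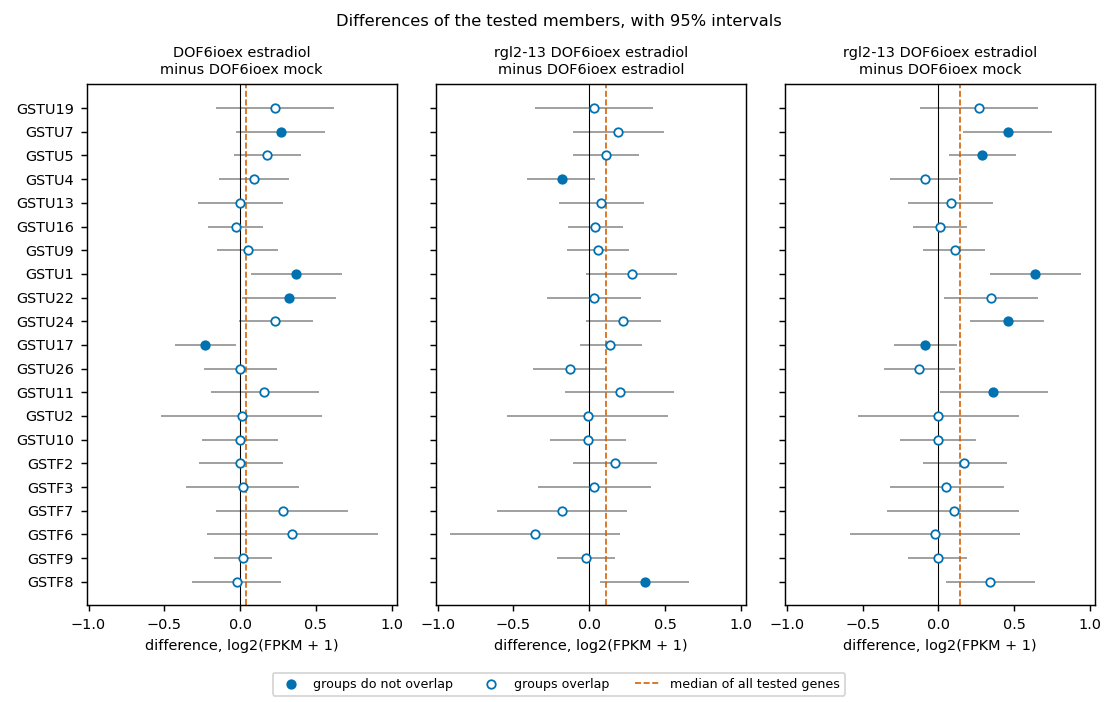
Differences of the 21 tested members on the log2(FPKM + 1) scale in 3 comparisons, with 95% intervals; filled points mark members whose groups do not overlap, and the dashed line is the median of all tested genes. Members lie on both sides of the dashed line in each comparison, and none passes the adjusted threshold of 0.05.

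The second comparison was made within estradiol, between libraries labelled rgl2-13 DOF6ioex and those of DOF6ioex, and asks what differed with the genotype label. Of the members, 1, GSTF8, which was higher, had an unadjusted p under 0.05 (4.76% of the 21), beside 15.2% of all tested genes and 12.6% that were higher. The groups did not overlap for 2 members, GSTF8 and GSTU4, which is 9.52%, beside 20.7% of all genes. GSTF8 was the 1 on the higher side, where 15.8% of all genes were. All tested genes had a median difference of 0.11 here and the 21 members one of 0.04, so the members' median was 0.06 below that of all genes. Under median-of-ratios scaling it was -0.06 for members and 0.01 for all genes. Of the members, 14 (66.7%) were fitted higher in libraries labelled rgl2-13 DOF6ioex, beside 76.4% of all genes. Above the median of all genes lay 8 members (38.1%).

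GSTF8 (AT2G47730), whose promoter is a widely used reporter of oxidative and salicylic acid responses, had 40.2, 30.5 and 27.9 FPKM in libraries labelled rgl2-13 DOF6ioex and 25.5, 23.4 and 26.2 in DOF6ioex estradiol libraries. The difference was 0.37 ± 0.14 (interval 0.07 to 0.66; limma adjusted p = 0.273), or 0.26 above the median of all genes. All 3 libraries were higher, with replicate 1, the library that stood apart, highest, and without that library the difference was 0.22. GSTU4 (AT2G29460) had 50.9, 42.2 and 47.1 FPKM in libraries labelled rgl2-13 DOF6ioex and 51.5, 55.1 and 52.7 in DOF6ioex estradiol libraries, a difference of -0.18 ± 0.10 (interval -0.41 to 0.04; limma adjusted p = 0.401). Here 3 of 3 libraries were lower, replicate 1 by a narrow margin.

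Among the abundant members, GSTU19 was spread most widely in the libraries labelled rgl2-13 DOF6ioex, at 905, 482 and 608 FPKM, around the 570.2, 685 and 634 of DOF6ioex estradiol libraries. Its difference was 0.03 ± 0.18, with an interval of -0.36 to 0.42. GSTU7 had 161, 108 and 119 FPKM in libraries labelled rgl2-13 DOF6ioex and 112, 121 and 102 in DOF6ioex estradiol libraries, and GSTU5 had 112, 93.6 and 93.8 in libraries labelled rgl2-13 DOF6ioex and 96.5, 94.7 and 85.7 in DOF6ioex estradiol libraries. In both genes replicate 1 alone lay above all DOF6ioex estradiol libraries. Their differences were 0.19 ± 0.14 for GSTU7 and 0.11 ± 0.10 for GSTU5 (limma adjusted p = 0.474 and 0.555). GSTF2 had 427, 551 and 477 FPKM in libraries labelled rgl2-13 DOF6ioex and 428, 417 and 443 in DOF6ioex estradiol libraries, a difference of 0.17 ± 0.13. GSTF3 had 294, 408 and 365 FPKM in libraries labelled rgl2-13 DOF6ioex and 314, 354 and 366 in DOF6ioex estradiol libraries, a difference of 0.03 ± 0.17. Within that labelled group, GSTF2 and GSTF3 were lowest in replicate 1, where GSTU19, GSTU7 and GSTU5 were highest. With replicate 1 left out, the difference was -0.21 for GSTU19 and 0.02 for both GSTU7 and GSTU5. GSTF7 was at 66.7, 75.3 and 47.5 FPKM in libraries labelled rgl2-13 DOF6ioex and 76.0, 61.2 and 75.2 in DOF6ioex estradiol libraries (difference -0.18 ± 0.20). Replicate 1 was the highest of its group in 11 of the 21 tested members (52.4%) and in 71.4% of all tested genes.

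**Figure D4:**
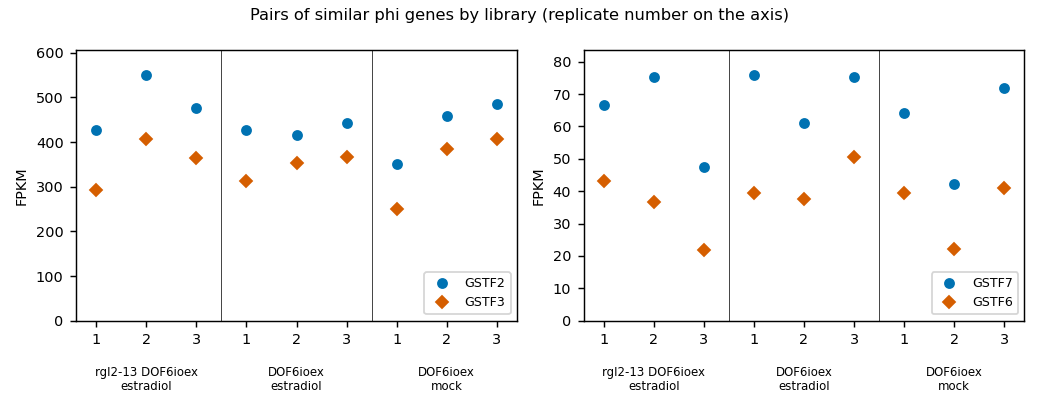
FPKM of GSTF2 and GSTF3 (left) and of GSTF7 and GSTF6 (right) in each library, with replicate numbers on the axis and groups ordered as rgl2-13 DOF6ioex estradiol, DOF6ioex estradiol and DOF6ioex mock. GSTF2 lies above GSTF3 in all 9 libraries and GSTF7 above GSTF6 in all 9, and both genes of the first pair are lowest in mock replicate 1, at 352 and 251 FPKM.

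Within each pair of near copies, the same libraries were low. GSTF2 exceeded GSTF3 in each of the 9 libraries, and both genes were lowest in mock replicate 1 (352 and 251 FPKM) and highest in replicate 2 of the libraries labelled rgl2-13 DOF6ioex (551 and 408 FPKM). For GSTF3, mock replicate 3 was close behind at 407 FPKM. GSTF6 (AT1G02930), the camalexin gene, had 43.1, 36.7 and 21.7 FPKM in libraries labelled rgl2-13 DOF6ioex, 39.4, 37.5 and 50.6 in DOF6ioex estradiol libraries and 39.5, 22.1 and 40.95 in mock libraries. Like its neighbour GSTF7, it was low in replicate 3 of the first group and in mock replicate 2. Sequence shared within the pairs, given above, was not tested for its part in these values.

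The third comparison was between libraries labelled rgl2-13 DOF6ioex, in estradiol, and mock libraries of DOF6ioex, which differ in both genotype label and treatment. At an unadjusted p under 0.05 there were 7 members (33.3%), all higher, beside 25.2% of all tested genes and 22.8% that were higher. The groups did not overlap for 6 members, 28.6%, beside 30.8% of all genes, and 5 of these were higher, 23.8% beside 27.3%. The members' median difference was 0.10, and that of all genes 0.14; under median-of-ratios scaling they were -0.06 for members and 0.01 for all genes. Of the 21, 14 (66.7%) were fitted higher, beside 80.1% of all genes, and 9 (42.9%) lay above the median of all genes, as 50.0% of all genes do.

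GSTU1 came nearest to the threshold. It had 15.7, 10.1 and 11.9 FPKM in libraries labelled rgl2-13 DOF6ioex and 8.08, 6.76 and 7.81 in mock libraries, with means of 12.5 ± 2.85 FPKM in libraries labelled rgl2-13 DOF6ioex and 7.55 ± 0.697 in mock libraries (SD, n = 3 each). The difference was 0.64 ± 0.14 (interval 0.34 to 0.94; limma adjusted p = 0.0625), higher in 3 of 3 libraries and 0.50 above the median of all genes. With replicate 2 of that labelled group left out it was 0.78 (limma adjusted p = 0.0225), and with replicate 1 left out 0.48 (limma adjusted p = 0.0546). GSTU24 (AT1G17170) had 9.32, 8.01 and 7.19 FPKM in libraries labelled rgl2-13 DOF6ioex and 5.41, 5.27 and 6.32 in mock libraries, a difference of 0.46 ± 0.11 (interval 0.21 to 0.70; limma adjusted p = 0.0776). DOF6ioex estradiol libraries lay between, at 6.09, 7.09 and 7.32 FPKM, and overlapped both other groups. GSTU7 had 161, 108 and 119 FPKM in libraries labelled rgl2-13 DOF6ioex and 93.8, 84.7 and 99.5 in mock libraries, a difference of 0.46 ± 0.14 (interval 0.16 to 0.75; limma adjusted p = 0.112). Relative to the median of all genes, both GSTU24 and GSTU7 were 0.32 higher. With replicate 1 of the labelled group left out, their differences were 0.37 and 0.29.

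GSTU11 (AT1G69930), a tau gene at low level, had 2.09, 1.97 and 2.86 FPKM in libraries labelled rgl2-13 DOF6ioex and 1.95, 0.93 and 1.92 in mock libraries. The groups were separated by 0.02 FPKM, less than 1 fragment at the estimated depth, and the difference was 0.36 ± 0.16 (interval 0.01 to 0.72; limma adjusted p = 0.193). Without mock replicate 2, at 0.93 FPKM, it was 0.16 (limma adjusted p = 0.527). GSTU5 was also without overlap, at 112, 93.6 and 93.8 FPKM in libraries labelled rgl2-13 DOF6ioex and 81.2, 75.2 and 87.7 in mock libraries (0.29 ± 0.10; limma adjusted p = 0.128). That is 0.15 above the median of all genes, and it was 0.14 under median-of-ratios and under upper quartile scaling. GSTU17 was the 1 such member on the lower side, at 5.44, 5.31 and 5.05 FPKM in libraries labelled rgl2-13 DOF6ioex and 5.80, 5.53 and 5.65 in mock libraries (-0.09 ± 0.09; limma adjusted p = 0.545). The most abundant members overlapped between these groups. GSTU19 averaged 665 ± 217 FPKM in libraries labelled rgl2-13 DOF6ioex and 535 ± 33.1 in mock libraries (0.27 ± 0.18; interval -0.12 to 0.66; 0.02 without replicate 1 of the labelled group). GSTF2 averaged 485 ± 62.4 and GSTF3 355 ± 57.6 FPKM in libraries labelled rgl2-13 DOF6ioex, against 432 ± 70.6 and 347 ± 84.3 in mock libraries (SD, n = 3 each).

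**Figure D5:**
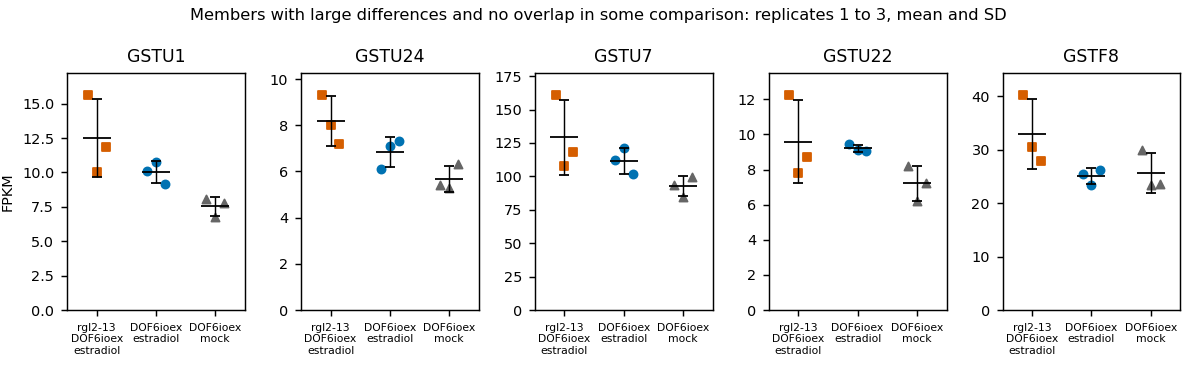
FPKM of GSTU1, GSTU24, GSTU7, GSTU22 and GSTF8 in replicates 1 to 3 of each group, with the mean (bar) and SD, on axes that start at 0. GSTU1 is at 10.1 to 15.7 FPKM in libraries labelled rgl2-13 DOF6ioex and 9.19 to 10.8 in DOF6ioex estradiol libraries, above the 6.76 to 8.08 of mock libraries.

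The intervals bound what these libraries could show. Across the 21 tested members they reached from -0.52 to 0.91 for estradiol against mock, from -0.92 to 0.66 for the genotype label in estradiol, and from -0.58 to 0.94 for both together. On the log2(FPKM + 1) scale every interval thus lay within a change of 1 in either direction, and the scale understates changes of the low members. Scaling by median of ratios brought the median of all genes to 0.00, 0.01 and 0.01 in the 3 comparisons, where it was 0.04, 0.11 and 0.14 as deposited. Under that scaling, small differences of GSTF2 (DOF6ioex estradiol against mock), GSTF3 (all 3 comparisons), GSTU19 (genotype label in estradiol) and GSTF7 (both together) changed sign.

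Other genes of glutathione metabolism were looked at beside the members: 22 genes for the remaining transferase classes, glutathione synthesis and reduction, conjugate transport and gamma-glutamyl transfer, of which 17 were tested. None was called in any comparison (limma, adjusted p under 0.05). At an unadjusted p under 0.05 there were 3 in DOF6ioex estradiol against mock (17.6% beside 6.82% of all tested genes), 1 in the comparison of genotype labels in estradiol (5.88% beside 15.2%), and 6 in libraries labelled rgl2-13 DOF6ioex against mock (35.3% beside 25.2%). The groups did not overlap for 3 of the 17 (17.6% beside 14.9%), 2 (11.8% beside 20.7%) and 9 (52.9% beside 30.8%) in the same order of comparisons. Their medians were 0.07, 0.04 and 0.14, close to the members' 0.05, 0.04 and 0.10. The most abundant was GSTZ1, a zeta-class enzyme of tyrosine breakdown, with 205, 152 and 172 FPKM in libraries labelled rgl2-13 DOF6ioex, 180.4, 196 and 204 in DOF6ioex estradiol libraries, and 189.9, 191 and 185 in mock libraries. GSH1, which catalyses the first step of glutathione synthesis, had 149, 135 and 134 FPKM in libraries labelled rgl2-13 DOF6ioex, 146, 162 and 162 in DOF6ioex estradiol libraries, and 149, 145 and 148 in mock libraries. Both overlapped between libraries labelled rgl2-13 DOF6ioex and mock libraries.

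Nearest to the threshold in that set were 3 genes, named after their values were seen, in libraries labelled rgl2-13 DOF6ioex against mock. ABCC1, a vacuolar transporter of glutathione conjugates, had 28.7, 22.2 and 23.6 FPKM in libraries labelled rgl2-13 DOF6ioex and 16.9, 15.5 and 18.5 in mock libraries, a difference of 0.52 (limma adjusted p = 0.0533). ABCC2, another such transporter, differed by 0.57 (limma adjusted p = 0.0581). DHAR2, a dehydroascorbate reductase that uses glutathione, had 19.9, 11.7 and 11.1 FPKM in libraries labelled rgl2-13 DOF6ioex and 8.96, 7.14 and 7.25 in mock libraries, a difference of 0.75 (limma adjusted p = 0.0746). For these 3 genes every library labelled rgl2-13 DOF6ioex was higher than every mock library, as for 27.3% of all tested genes. For DHAR2 replicate 1 was far above the other 2. In DOF6ioex estradiol against mock, all 3 genes were also higher without overlap, beside 10.6% of all tested genes. The differences there were 0.27 for ABCC1, 0.37 for ABCC2 and 0.41 for DHAR2 (limma adjusted p = 0.693, 0.57 and 0.72).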

How the data were processed

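RNA was sequenced from 9 seed libraries. The submitters' processing notes name HISAT as a tool; version, genome build and quantifier are not given in the sources used. The authors deposited FPKM per gene in 6 pairwise tables, per the file headers (1 table heads them RPKM). A library that stands in 2 tables had identical values in both. Joined, they gave 22555 genes in 9 libraries, with absent values set to 0.01, the lowest listed. A further 4 FPKM columns and the authors' pairwise ratios and p-values were not used.

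Because the files hold FPKM and not counts, limma 3.58.1 (R 4.3.3, mean-variance trend) was fitted to log2(FPKM + 1) of the 13679 genes that reached 1 FPKM in 3 or more libraries. The model held all 9 libraries and 1 mean for each group, and p-values were adjusted over all tested genes. Differences on this scale understate changes of low genes. Low FPKM values lay within 0.15 of whole fragment multiples in 71.8% to 89.5% of cases, which gave the depth estimate of 26800000 to 31300000 fragments per library; no counting interval was derived from it. Deposited gene lengths equalled RefSeq TAIR10.1 transcript lengths for 91.7% of genes with 1 transcript, so sequences were read from that build. Proteins were not used here.

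The members, gene lists and naming rule were chosen with earlier results of these data known. Values in every library are given for the 3 tau and 3 phi genes of highest mean and, per comparison, up to 4 members with the largest difference among those whose groups do not overlap; GSTF6 was added beside GSTF7 after its values were seen. Alternatives were a pseudocount of 0.1, no filter, median-of-ratios and upper quartile scaling, only the 6 libraries compared, the replicate number as a block, each library left out and a threshold of 0.10.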

Additional observations from a re-analysis of the deposited data

How the results depend on the processing

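The number of members called stayed at 0 under all 16 alternatives for DOF6ioex estradiol against mock and for the comparison of genotype labels in estradiol. For libraries labelled rgl2-13 DOF6ioex against mock it was 2 at an adjusted p under 0.10 (GSTU1 and GSTU24, where 539 of all 13679 tested genes were called), 0 to 1 with each library left out (the 1 being GSTU1 with replicate 2 of that labelled group left out, where 224 genes in all were called), and 0 otherwise. With the replicate number as a block, 0 members were called in each comparison. Over all tested genes, deviations of same-numbered libraries correlated at -0.412 to 0.253, and those of other pairs between groups at -0.389 to 0.355. Whether same-numbered libraries were paired is not settled by these correlations. Over the alternatives, the limma adjusted p for libraries labelled rgl2-13 DOF6ioex against mock ran from 0.0225 to 0.27 for GSTU1, 0.0659 to 0.294 for GSTU24 and 0.0506 to 0.342 for GSTU7.

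Of 390 recomputed differences of named members, 363 kept direction and side of the threshold, 26 changed sign and 1 passed the threshold. Those that changed sign had been between -0.18 and 0.10 in the fit reported above, and reached -0.21 when recomputed. With median-of-ratios and upper quartile scaling they were -0.04 and -0.04 for GSTF2 and -0.03 and -0.03 for GSTF3 in DOF6ioex estradiol against mock; -0.08 and -0.07 for GSTF3 and -0.08 and -0.07 for GSTU19 in libraries labelled rgl2-13 DOF6ioex against DOF6ioex; and -0.10 and -0.10 for GSTF3 and -0.06 and -0.05 for GSTF7 in libraries labelled rgl2-13 DOF6ioex against mock. With 1 library left out, DOF6ioex estradiol against mock ranged from -0.14 to 0.10 for GSTF2 and -0.20 to 0.15 for GSTF3. Libraries labelled rgl2-13 DOF6ioex against DOF6ioex ranged from -0.07 to 0.16 for GSTF3, -0.32 to 0.01 for GSTF7 and -0.21 to 0.24 for GSTU19. Libraries labelled rgl2-13 DOF6ioex against mock ranged from -0.17 to 0.18 for GSTF3 and -0.13 to 0.29 for GSTF7. The cause was not tested. Among differences that kept their sign, leaving out 1 library also gave 0.07 to 0.26 for GSTF2, 0.02 to 0.31 for GSTU7, 0.02 to 0.15 for GSTU5 and -0.25 to -0.11 for GSTU4 between genotype labels in estradiol, and 0.03 to 0.26 for GSTF2 and 0.02 to 0.47 for GSTU19 in libraries labelled rgl2-13 DOF6ioex against mock.

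The count over all genes depends on the setting: 21 for DOF6ioex estradiol against mock, with 57 under median-of-ratios and under upper quartile scaling, 4 without the filter, 105 with 6 libraries, 12 with the block and 5 to 90 with 1 library left out; 22 for libraries labelled rgl2-13 DOF6ioex against DOF6ioex, with 4, 7, 11 and 8 to 26 for the last 4 settings; and 78 for libraries labelled rgl2-13 DOF6ioex against mock, with 133, 130, 5, 18, 12 and 7 to 224 in the same order. At an adjusted p under 0.10 they were 34, 63 and 539.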
